A study of Mus musculus with 8 samples.

Results

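The genes described here encode the enzymes that write, copy and remove cytosine methylation, and they were read out in 4 mouse mammary tumour cell lines. The 8 genes were taken by symbol: *Dnmt1*, *Dnmt3a*, *Dnmt3b*, *Uhrf1*, *Tet1*, *Tet2*, *Tet3* and *Tdg*. Each matched 1 row of the 27179 rows in the gene count table, and all 8 passed the filter on low counts that left 13913 genes for testing. RNA-seq was performed on cultured cells of the isogenic lines 4T1.2, 4T1, 66cl4 and 67NR, untreated, with 2 samples per line and 8 libraries in all. 4T1.2 and 4T1 are the lines of high metastatic ability, and 66cl4 and 67NR were used as counterparts with lower ability. The sample labels spell the third line with a digit in place of its letter l. Each metastatic class is represented by 2 lines only, so a difference between classes cannot be told apart from a difference between the particular lines. Library totals ran from 37159840 to 66269681 counts.

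DNA methylation in mammals sits mainly on cytosines that precede a guanine (CpG). *Dnmt3a* and *Dnmt3b* encode the de novo methyltransferases, which place new marks. *Dnmt1* encodes the maintenance methyltransferase, which copies marks to the new strand after replication, and *Uhrf1* encodes the protein that recognises hemimethylated DNA and recruits DNMT1. The TET dioxygenases, encoded by *Tet1*, *Tet2* and *Tet3*, oxidise methylcytosine, and *Tdg* encodes the glycosylase that excises the further oxidised bases so that base excision repair can restore an unmodified cytosine. These data hold RNA levels and no measurement of methylation.

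The DNA before the start sites of the 3 genes that separated the 4T1/4T1.2 lines from 66cl4/67NR is shown here with its CpG sites. Whether these sites were methylated in any line was not measured. Each line gives the 250 bases before the RefSeq start site (GRCm38.p6), written 5′ to 3′ on the strand of the gene, with every CpG in capitals. The start is that of 1 RefSeq transcript, whereas the gene coordinates given further on are outer bounds over all transcripts, so the last 38 bases for *Dnmt3b*, the last 145 for *Tet1* and the last 24 for *Tdg* lie inside those bounds. The windows are chr2:153649199-153649448 (plus strand) for *Dnmt3b*, chr10:62887325-62887574 (minus strand) for *Tet1* and chr10:82629588-82629837 (plus strand) for *Tdg*. They hold 21, 15 and 19 CpG sites.
Dnmt3b: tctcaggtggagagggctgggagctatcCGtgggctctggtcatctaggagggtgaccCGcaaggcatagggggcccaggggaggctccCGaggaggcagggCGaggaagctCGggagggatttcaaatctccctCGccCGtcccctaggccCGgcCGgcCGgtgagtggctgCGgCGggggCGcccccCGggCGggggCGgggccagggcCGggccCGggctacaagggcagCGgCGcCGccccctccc
Tet1: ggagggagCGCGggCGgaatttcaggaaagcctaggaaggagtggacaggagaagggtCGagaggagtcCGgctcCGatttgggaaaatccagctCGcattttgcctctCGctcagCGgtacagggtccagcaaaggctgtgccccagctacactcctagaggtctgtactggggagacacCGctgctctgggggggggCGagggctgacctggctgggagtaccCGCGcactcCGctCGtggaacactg
Tdg: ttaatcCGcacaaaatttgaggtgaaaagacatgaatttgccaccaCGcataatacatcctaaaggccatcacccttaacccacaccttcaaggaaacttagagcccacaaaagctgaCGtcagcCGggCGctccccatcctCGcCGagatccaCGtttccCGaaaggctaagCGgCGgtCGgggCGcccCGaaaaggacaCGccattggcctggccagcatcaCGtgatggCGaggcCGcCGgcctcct

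All 8 genes matched at least 1 RefSeq promoter window of 300 bases (250 before and 50 after a start), with 13 windows between them. The median over all 32851 windows was 7 CpG sites. The windows of *Dnmt3b*, *Tet1* and *Tdg* held 30, 17 and 26, and those of *Tet2* and *Tet3* held 57 and 22. More CpG sites stood in the window of *Tet2* than in 99.8% of all windows. *Dnmt1* had 3 windows with 33, 12 and 2 sites, *Dnmt3a* had 3 with 46, 47 and 18, and *Uhrf1* had 2 with 12 and 33. Motifs were counted per gene, over all its windows. A GC box (GGGCGG, either strand) was found for 7 of the 8 genes, all but *Tdg*, against 38.2% of all genes with a window. A CCAAT box (CCAAT, either strand) was found for *Dnmt1*, *Tdg*, *Tet3* and *Uhrf1*, against 41.1% of all genes. An E2F motif (TTTCCCGC or TTTGGCGC, either strand) was found for *Dnmt1* alone, against 1.80% of all genes. *Dnmt1*, *Dnmt3a* and *Uhrf1*, with more than 1 window, had more sequence in which a motif could occur.

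In the comparison of 4T1/4T1.2 with 66cl4/67NR, *Dnmt3b* and *Tet1* RNA was close to absent in 66cl4 and 67NR and clearly present in 4T1 and 4T1.2, and *Tdg* was moderately higher in 4T1 and 4T1.2. *Tet2* and *Tet3* were slightly lower in the mean of 4T1 and 4T1.2. In 4T1 alone, however, *Tet2* stood above 67NR by 0.40 on the log2 scale (adjusted p in edgeR = 0.0774). *Dnmt1*, *Dnmt3a* and *Uhrf1* did not pass the test. So 5 of the 8 genes differed past the threshold of 0.05 on the adjusted p (quasi-likelihood F-test of edgeR, adjusted over all 13913 genes), while 76.7% of all genes tested did so. Of these, 3 were higher and 2 lower, against 38.1% and 38.6% of all genes. The share of the 8 genes, 62.5%, did not exceed that background. The 4 libraries of each side did not overlap in CPM (counts scaled to a common library size by TMM) for *Dnmt3b*, *Tet1* and *Tdg*, and such separation was seen for 55.5% of all genes tested. In bulk RNA, fewer cells expressing a gene and less RNA per cell cannot be told apart.

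**Figure D1:**
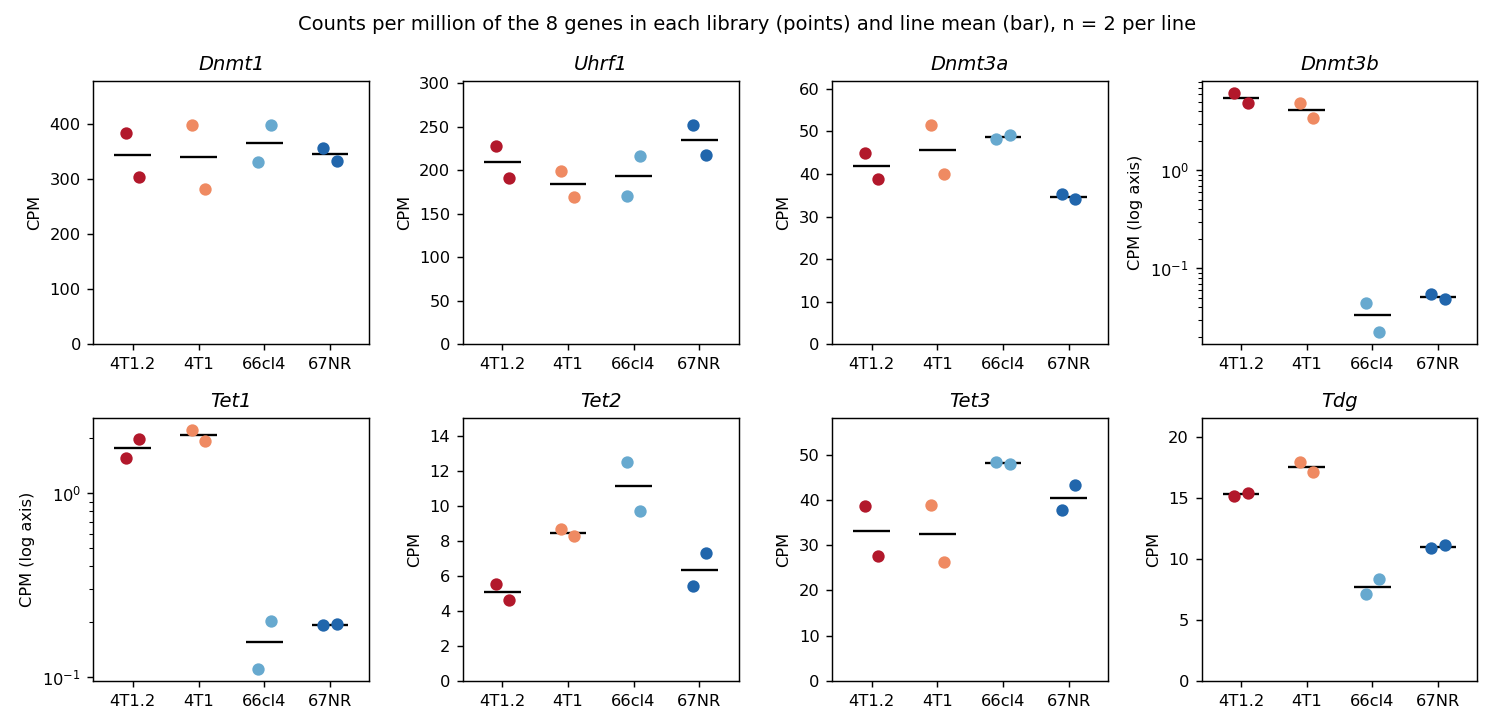
CPM of each of the 8 genes in each library (points, 2 per line) with the line mean (bar); the axes of Dnmt3b and Tet1 are logarithmic and the others start at 0. Dnmt3b and Tet1 in 66cl4 and 67NR lie far below every 4T1 and 4T1.2 library, while the points of Dnmt1 overlap in all lines.

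*Dnmt3b* (Entrez 13436, chromosome 2, 153649411 to 153687730, GRCm38) was covered by 350 and 277 counts for 4T1.2 and by 297 and 159 counts for 4T1. It had 2 and 1 counts in 66cl4 and 2 and 3 counts in 67NR. Each 4T1 or 4T1.2 library held far more reads of this de novo methyltransferase than the 66cl4 and 67NR libraries together. Mean levels were 5.53 ± 0.90 CPM for 4T1.2 (SD, n = 2), 4.15 ± 1.01 for 4T1, 0.0333 ± 0.0155 for 66cl4 and 0.0516 ± 0.0042 for 67NR. After allowing for library size, the summed counts (1083 against 8) gave a ratio of 115, with a 95% counting interval of 58.4 to 268 that covers counting error only. The adjusted p in edgeR was 1.09e-08, and the fitted log2 fold change of 6.78 depends on the prior count because the lower side is so near 0. Within each pair of lines no difference was called: 4T1.2 exceeded 4T1 by 0.41 on the log2 scale (SE 0.20, 95% interval -0.04 to 0.86, adjusted p = 0.203), and at this depth a difference between 66cl4 and 67NR was not detectable (95% interval -2.80 to 1.64). The median gene in the 20 Mb window centred on *Dnmt3b* was also higher in 4T1.2 than in 4T1, by 0.27 relative to all genes. The part of this shift in the 4T1.2 and 4T1 values was not tested.

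The genes beside *Dnmt3b* did not all share its pattern. *Commd7*, 16.6 kb before it, ranged from 37.1 to 53.2 CPM over the 4T1 pair and from 36.4 to 44.6 CPM over 66cl4 and 67NR, with a log2 fold change of 0.15 (adjusted p in edgeR = 0.0826). *Nol4l*, the next tested gene on that side, 119 kb away, had 41.5 to 72.5 CPM against 0.553 to 1.147 CPM. On the other side, *Mapre1*, a microtubule plus-end gene 53.6 kb away, was higher by 0.67, and *Bpifb4*, 250 kb away, had 4.05 to 13.9 CPM against 0.0447 to 0.137 CPM. Over the 171 tested genes of the 20 Mb window centred on *Dnmt3b*, the median shift in the pooled comparison was 0.17 relative to all genes. Some transcript sequence of *Dnmt3b* is not its own: 6.17% of its 75-base stretches also occur in *Dnmt3c*, a rodent paralogue active in the male germ line, which was not a row of the count table.

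*Tet1* (Entrez 52463, chromosome 10, 62804570 to 62887469) had 88 and 112 counts in 4T1.2 and 135 and 89 counts in 4T1. It had 5 and 9 counts in 66cl4 and 7 and 12 counts in 67NR. The libraries of the 4T1 pair all stood above the others, although *Tet1* was the lowest of the TET genes in each line. Mean levels (SD, n = 2) were 1.76 ± 0.30 CPM for 4T1.2, 2.07 ± 0.21 for 4T1, 0.156 ± 0.064 for 66cl4 and 0.193 ± 0.002 for 67NR. The log2 fold change was 3.44 (SE 0.22, 95% interval 2.94 to 3.95, adjusted p in edgeR = 3.26e-07), and the ratio of the summed counts was 10.96 with a counting interval of 7.69 to 16.1. Neither 4T1.2 against 4T1 (-0.23, interval -0.72 to 0.25) nor 66cl4 against 67NR (-0.31, interval -1.38 to 0.76) passed the test. The nearest tested genes, *Ddx50* and *Ccar1* on one side and *Slc25a16* and *Dna2* on the other, had log2 fold changes of at most 0.14 in either direction, and none of them was called.

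*Tdg* (Entrez 21665, chromosome 10, 82629814 to 82650799) had 15.2 and 15.4 CPM for 4T1.2 and 18.0 and 17.1 CPM for 4T1. It had 7.14 and 8.33 CPM for 66cl4 and 10.9 and 11.2 CPM for 67NR. The lines lay in the order 4T1, 4T1.2, 67NR, 66cl4 without overlap, and the steps from 4T1.2 to 67NR and from 67NR to 66cl4 passed the test while the step from 4T1 to 4T1.2 did not (adjusted p = 0.274). In the pooled comparison *Tdg* was 1.78-fold higher in 4T1/4T1.2 (log2 fold change 0.83, SE 0.08, 95% interval 0.64 to 1.01, adjusted p in edgeR = 8.33e-06). Between 66cl4 and 67NR it was lower in 66cl4 (log2 fold change -0.51, SE 0.12, adjusted p in edgeR = 0.0064).

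The reads of *Tdg* cannot be assigned to it with certainty. Of its 75-base transcript stretches, 33.8% also occur in other genes, among them the copies *Tdg-ps* (chromosome 15, 82516295 to 82519242) and *Tdg-ps2* (chromosome 10, 42052558 to 42055453, listed as *Gm9855* in the transcript set, with 13.5% of the stretches). *Tdg-ps2* held 7206 and 6963 counts for 4T1.2, 8803 and 6598 for 4T1, 2505 and 2999 for 66cl4, and 3265 and 5765 for 67NR. This was 7.76 to 8.36 times the count of *Tdg* in the same library, and *Tdg* made up 10.02% to 10.67% of the 3 rows together in each library, so the rows kept nearly the same proportions in every line. Summed over the 3 rows, the level (SD, n = 2) was 149 ± 3 CPM for 4T1.2, 171 ± 3 for 4T1, 73.8 ± 9.8 for 66cl4 and 109 ± 3 for 67NR. The sum, an addition made after the data were seen, had a log2 fold change of 0.83 (SE 0.07, adjusted p in edgeR = 2.59e-06) in the pooled comparison and -0.57 (SE 0.10, adjusted p = 0.00137) in 66cl4 against 67NR. The direction and the size therefore held for the 3 rows together, while how the RNA divided between *Tdg* and its copies was not resolved. Other genes that share stretches with *Tdg*, among them *Gm5597* with 12.3%, were not part of the sum. The exons of *Tdg* also overlap those of *Glt8d2* on the opposite strand over 6.83% of their length, and whether counting used strand is not given in the sources used here.

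**Figure D2:**
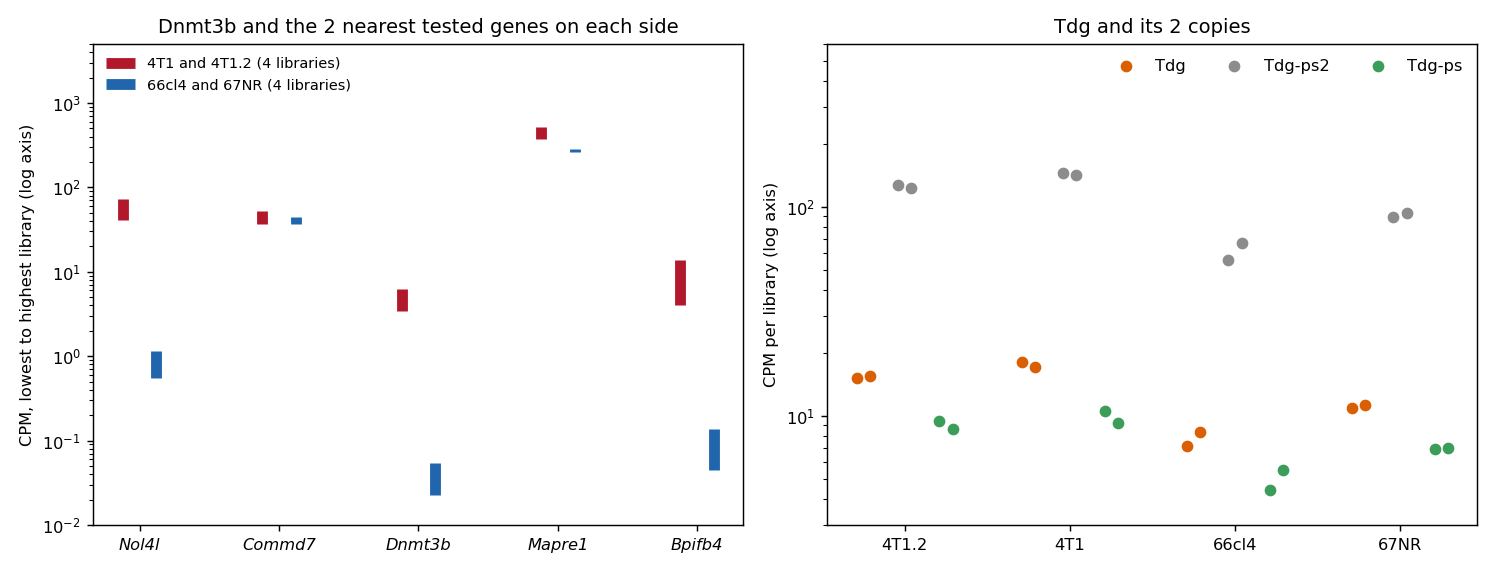
Left, range of CPM (log axis) over the 4 libraries of 4T1 and 4T1.2 (red) and the 4 of 66cl4 and 67NR (blue) for Dnmt3b and the nearest tested genes in genome order; Nol4l and Bpifb4 separate as Dnmt3b does and Commd7 does not. Right, CPM per library (log axis) of Tdg and its copies, where Tdg-ps2 stands 7.76 to 8.36 times above Tdg in every library.

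*Tet2* (Entrez 214133, chromosome 3, 133463677 to 133545136) differed within each pair of lines and between 4T1.2 and 66cl4. It had 5.57 and 4.66 CPM for 4T1.2, 8.68 and 8.29 CPM for 4T1, 12.6 and 9.71 CPM for 66cl4, and 5.41 and 7.33 CPM for 67NR. The 66cl4 libraries were highest, the 4T1.2 libraries lay at or near the bottom, and 4T1.2 overlapped 67NR. *Tet2* fell below the 4T1 level in 4T1.2 (log2 fold change -0.73, SE 0.19, adjusted p in edgeR = 0.0224). It was the only one of the 8 genes called there, where 19.3% of all genes tested were called, 9.90% as lower. This call was lost without either 4T1.2 replicate (-0.86, adjusted p = 0.0582 without replicate 1 and -0.61, adjusted p = 0.147 without replicate 2). *Tet2* was 1.73-fold higher in 66cl4 than in 67NR (log2 fold change 0.79, SE 0.18, adjusted p = 0.00643), a call lost without replicate 1 of 66cl4 (0.60, adjusted p = 0.0554) or replicate 1 of 67NR (0.60, adjusted p = 0.0584). In 4T1.2 against 66cl4 it was lower (-1.12, SE 0.19, adjusted p in edgeR = 0.000424), a call kept under all 19 alternatives. In 66cl4 against 67NR, where *Tet2* was higher, the tested genes of the 20 Mb window centred on it went the other way. Their median shift there was -0.78 relative to all genes. In 4T1.2 against 66cl4, where *Tet2* was lower, their median shift was -0.24. In the pooled comparison, where *Tet2* was also lower in 4T1/4T1.2, their median shift was -0.62. In 4T1.2 against 4T1 it was -0.04. The part of these shifts in the *Tet2* values was not tested.

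*Tet3* (Entrez 194388, chromosome 6, 83362373 to 83457208) had 38.7 and 27.5 CPM for 4T1.2, 38.9 and 26.2 CPM for 4T1, 48.5 and 48.0 CPM for 66cl4, and 37.8 and 43.3 CPM for 67NR. The first replicates of 4T1.2 and 4T1 reached into the range of 67NR, and the second replicates lay below every other library. In the pooled comparison *Tet3* was 1.35-fold lower in 4T1/4T1.2 (log2 fold change -0.43, SE 0.14, adjusted p in edgeR = 0.0171), and *Tet2* was 1.28-fold lower (log2 fold change -0.36, SE 0.13, adjusted p = 0.029). Both calls depended on single libraries. The call of *Tet3* was lost without replicate 2 of 4T1.2 (-0.31, adjusted p = 0.0616) or replicate 2 of 67NR (-0.38, adjusted p = 0.0697). That of *Tet2* was lost without replicate 2 of 4T1.2 (-0.30, adjusted p = 0.107), replicate 1 of 66cl4 (-0.26, 0.110) or replicate 2 of 67NR (-0.24, 0.154). Against 66cl4 alone, *Tet3* was lower in both 4T1.2 (-0.54, adjusted p = 0.0314) and 4T1 (-0.56, adjusted p = 0.0265), and against 67NR neither difference passed the test. Both calls against 66cl4 were lost without 66cl4 replicate 1 (adjusted p = 0.0968 and 0.0847) or replicate 2 (0.0893 and 0.0788), while the log2 fold changes stayed at -0.54 and -0.56 or -0.55 and -0.57. The 4T1.2 call was also lost without replicate 2 of 4T1.2, with a smaller difference (-0.31, adjusted p = 0.231), and the 4T1 call without replicate 2 of 4T1 (-0.30, adjusted p = 0.148). Against 67NR, *Tet3* passed the test in 4T1 without replicate 1 of 4T1 (adjusted p = 0.00792) and in 4T1.2 without replicate 1 of 4T1.2 (0.0447).

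**Figure D3:**
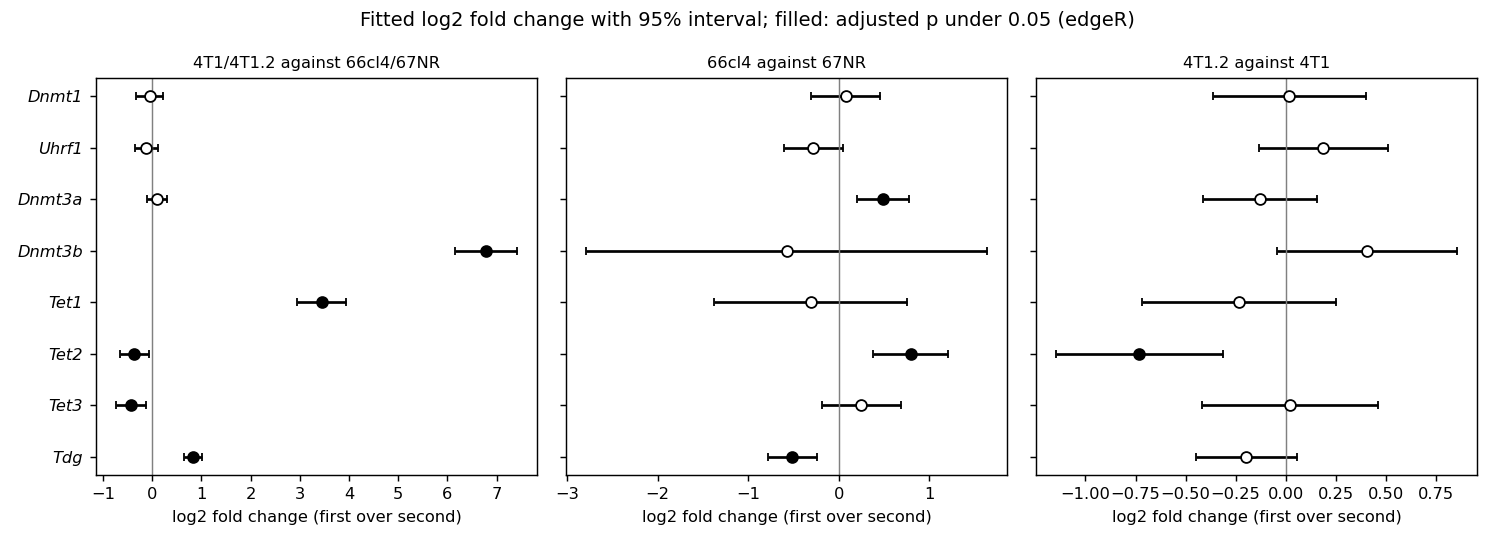
Fitted log2 fold change of each gene (point) with its 95% interval (line) in 3 comparisons, each panel with its own scale; filled points passed an adjusted p of 0.05 in edgeR. Dnmt3b, at 6.78, and Tet1, at 3.44, stand far from 0 in the pooled comparison, and Tet2 alone is filled in 4T1.2 against 4T1.

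*Dnmt3a* (Entrez 13435, chromosome 12, 3801559 to 3914443) had 44.9 and 38.8 CPM for 4T1.2, 51.6 and 39.9 CPM for 4T1, 48.1 and 49.1 CPM for 66cl4, and 35.2 and 34.1 CPM for 67NR. The 67NR libraries lay below all the others, and the range of 4T1 overlapped those of 4T1.2 and 66cl4. *Dnmt3a* was higher in 66cl4 than in 67NR by 0.49 on the log2 scale (SE 0.13, adjusted p in edgeR = 0.0119) and in 4T1 than in 67NR by 0.40 (SE 0.13, adjusted p = 0.0184), whereas 4T1.2 against 67NR gave 0.27 (interval -0.01 to 0.56, adjusted p = 0.0838). The 66cl4 call was lost without replicate 2 of 66cl4 (adjusted p = 0.0537) or without either 67NR replicate (0.0581 and 0.0832), with log2 fold changes of 0.47, 0.51 and 0.46. The 4T1 call was lost without replicate 1 of 4T1 (0.21, adjusted p = 0.139), without either 67NR replicate (0.42 and 0.38, adjusted p = 0.0674 and 0.0979) and without TMM scaling (0.24, adjusted p = 0.188). In the pooled comparison the log2 fold change was 0.09 (95% interval -0.11 to 0.30, adjusted p = 0.366), and it passed the test without replicate 2 of 4T1 (0.18, adjusted p = 0.0396). The large change of *Dnmt3b* was thus not shared by the other de novo enzyme.

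*Dnmt1* (Entrez 13433, chromosome 9, 20907206 to 20959888) was the most abundant of the 8 genes by CPM, with 384 and 304 CPM for 4T1.2, 397 and 282 for 4T1, 330 and 398 for 66cl4, and 356 and 333 for 67NR. All 4 lines overlapped, and replicates of one line differed by as much as the lines did. The pooled log2 fold change was -0.05 (SE 0.12, 95% interval -0.32 to 0.22, adjusted p in edgeR = 0.704), and no comparison of single lines passed the test with all libraries (4T1 against 66cl4 did without replicate 1 of 4T1, adjusted p = 0.0457). *Uhrf1* (Entrez 18140, chromosome 17, 56303337 to 56323486) had 228 and 191 CPM for 4T1.2, 199 and 169 for 4T1, 170 and 216 for 66cl4, and 252 and 218 for 67NR. Its pooled log2 fold change was -0.12 (SE 0.10, 95% interval -0.34 to 0.11, adjusted p = 0.314). In 4T1 against 67NR it was -0.35 with an adjusted p of 0.0524, which fell to between 0.0188 and 0.0459 under 10 alternatives of scaling, filter, tool, block or libraries. A predicted gene, *Gm5648*, shares 9.05% of the 75-base stretches of *Uhrf1*.

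In the 4T1 and 4T1.2 lines replicate 1 exceeded replicate 2 for *Dnmt1*, *Dnmt3a*, *Dnmt3b*, *Uhrf1*, *Tet2* and *Tet3*, by as little as 0.07 for *Tet2* in 4T1. The difference between replicates was 0.50 (4T1) and 0.34 (4T1.2) on the log2 scale for *Dnmt1* and 0.57 and 0.49 for *Tet3*. *Tet1*, the longest of the 8 genes, did not share this in both lines, with 0.20 in 4T1 and -0.34 in 4T1.2. Over the 1495 tested genes of at least 6000 bases its median was 0.25 and 0.14, and over the 4421 genes under 2000 bases it was -0.19 and -0.10. In 66cl4 and 67NR the medians of the long genes were 0.02 and 0.06. The part of transcript length in the spread of *Dnmt1* and *Tet3* was not tested.

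Per length, in RPKM (CPM per kilobase of the counted gene length), the families were dominated by 1 member each. *Dnmt1* made up 90.8% ± 0.4 of the summed RPKM of the 3 methyltransferase genes for 4T1.2 (SD, n = 2), 90.5% ± 0.4 for 4T1, 92.1% ± 0.9 for 66cl4 and 93.9% ± 0.1 for 67NR. *Dnmt3a* contributed 6.05% to 7.92% as line means. *Dnmt3b* contributed 2.13% in 4T1.2 and 1.61% in 4T1, but 0.0127% in 66cl4 and 0.0205% in 67NR. *Tet3* made up 81.4% ± 2.6 of the TET sum for 4T1.2, 73.1% ± 4.6 for 4T1, 78.4% ± 2.9 for 66cl4 and 84.1% ± 1.5 for 67NR. *Tet2* contributed 15.1%, 23.2%, 21.4% and 15.6% in the same order, and *Tet1* contributed 3.50%, 3.66%, 0.198% and 0.311%. The large relative changes of *Dnmt3b* and *Tet1* therefore concerned the smallest shares of their families. *Uhrf1*, at 46.2 to 69.1 RPKM, was about as abundant per length as *Dnmt1*, at 44.7 to 63.1 RPKM.

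**Figure D4:**
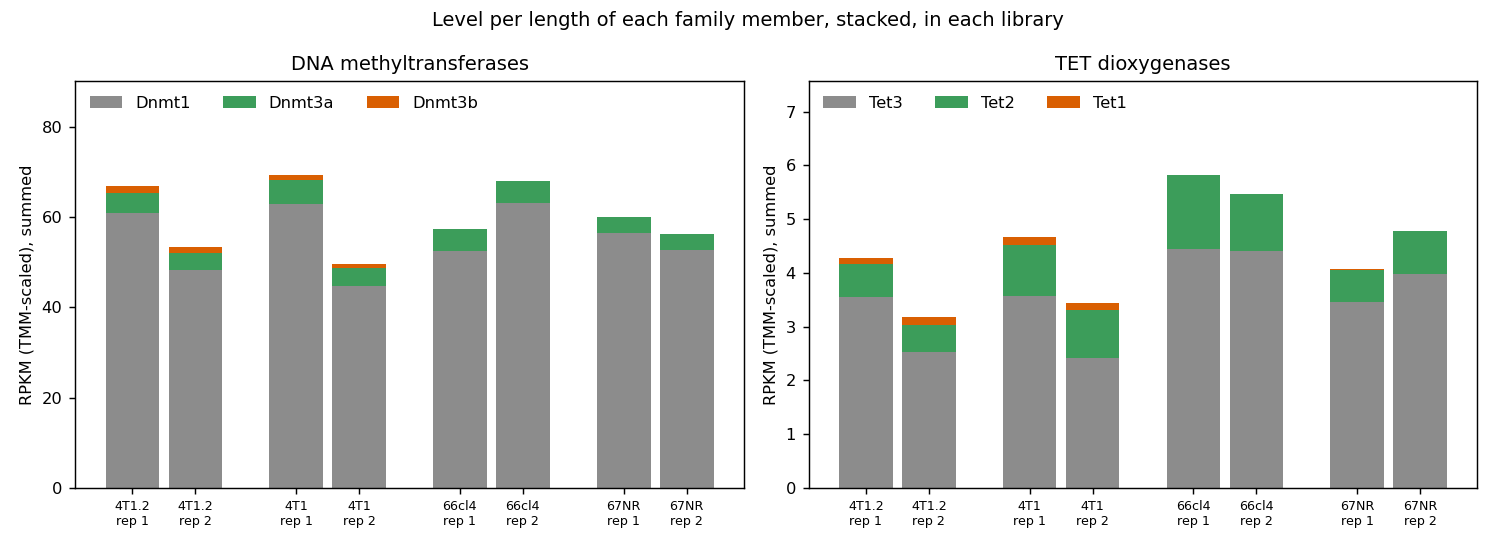
Stacked RPKM of the DNA methyltransferase genes (left) and the TET genes (right) in each library, from 0. Dnmt1 and Tet3 form most of each bar, and the Dnmt3b and Tet1 segments are visible in 4T1.2 and 4T1 only.

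Taking all comparisons of the lines, 5 of the 8 genes (*Dnmt3a*, *Dnmt3b*, *Tet1*, *Tet2* and *Tdg*) differed in a test of any difference among the 4 lines, against 84.7% of all genes tested. Between 66cl4 and 67NR, 3 of 8 were called, against 44.6%. *Dnmt3a* and *Tet2* were higher and *Tdg* lower in 66cl4, against 22.3% and 22.4% of all genes in each direction. In 4T1.2 relative to 66cl4, 5 of 8 were called (68.8% of all genes), 3 higher and 2 lower (34.3% and 34.5% of all genes). In 4T1 relative to 66cl4, 4 of 8 were called (70.0%), 3 higher and 1 lower (34.9% and 35.2%). In 4T1.2 relative to 67NR, 3 of 8 were called (67.8%), all higher, where 33.7% of all genes were higher and 34.1% lower. In 4T1 relative to 67NR, 4 of 8 were called (68.2%), again all higher, where 33.8% were higher and 34.4% lower. These comparisons share libraries. *Dnmt3b*, *Tet1* and *Tdg* were called higher in each of the 4 comparisons of a 4T1-pair line with 66cl4 or 67NR.

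For each gene the 3 tested genes with the most similar course over the 8 libraries were found, by the root mean square difference of log2 CPM centred on each gene. For *Dnmt3b* they were *Xkr5* (difference 0.23), *Pcbp3* (0.24) and its neighbour *Nol4l* (0.25), where *Dnmt3b* itself varied by 2.96. For *Tet1* they were *Lurap1* (0.18), *Galr3* (0.21) and *Asb16* (0.23), the last 2 at under 1 CPM in every library. For *Tdg* they were its copy *Tdg-ps2* (0.04), *Cpsf2* (0.06) and *Cdc14a* (0.06). For *Tet3* they were *Mbd6*, *Med13l* and *Ptprs*, and for *Tet2* they were *D030025P21Rik*, *Isoc2b* and *Map4k3*. For *Dnmt1*, *Dnmt3a* and *Uhrf1*, which varied little, the closest genes were *Brd2*, *Nemp1* and *Ncapd3*.

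Partners of methylation maintenance and de novo methylation were described beside the enzymes from a list of 19 genes, of which 16 were tested. The pooled comparison found 5 of them higher and 5 lower (62.5% called, against 76.7% of all genes), with a median log2 fold change of -0.05 against -0.01 for all genes. *Trdmt1* (Dnmt2, a tRNA cytosine methyltransferase) was higher by 1.95 (adjusted p in edgeR = 5.38e-09), with 28.1 ± 0.1 CPM for 4T1.2, 25.3 ± 1.4 for 4T1, 6.29 ± 0.01 for 66cl4 and 7.54 ± 0.14 for 67NR. *Pcna*, the replication clamp that DNMT1 binds, was higher by 0.82 (adjusted p = 4.31e-06). *Hells*, a chromatin remodeller needed for normal DNA methylation, was lower (log2 fold change -0.50, adjusted p = 0.000222), as was *Uhrf2*, the paralogue of *Uhrf1* (-0.42, adjusted p = 5.1e-05). Against 66cl4 alone, *Hells* passed the test neither in 4T1.2 (-0.27, adjusted p in edgeR = 0.0548) nor in 4T1 (-0.20, adjusted p = 0.128). *Uhrf2* did not pass it in 4T1.2 against 67NR (-0.16, adjusted p = 0.0928). The cofactor *Dnmt3l* had 0 to 13 counts in all libraries, and *Dppa3*, whose product restrains UHRF1, had 0.

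Of the 26 genes of base excision repair and TET partners, 23 were tested, 7 of them higher and 11 lower (78.3% called, against 76.7% of all genes). *Cxxc5*, a TET partner with a CXXC domain, had 162 ± 1 CPM for 4T1.2, 151 ± 4 for 4T1, 66.2 ± 0.4 for 66cl4 and 14.5 ± 0.8 for 67NR, and was higher by 2.33 (adjusted p in edgeR = 3.26e-10). The cytidine deaminase gene *Apobec1* was lower (-2.63, adjusted p = 1.82e-08), as was *Gadd45b*, a stress gene linked to demethylation (-2.37, adjusted p = 7.1e-08). *Apobec2* had 10 to 113 counts in the 4T1 pair and 0 to 3 in the others (adjusted p = 8e-05). Within the pair it was lower in 4T1.2, at 0.176 CPM, than in 4T1, at 1.99 ± 0.64 CPM (log2 fold change -3.46, adjusted p in edgeR = 0.000442). Repair genes that work after TDG went both ways: *Apex1*, the abasic site endonuclease, was higher by 1.07, and *Xrcc1* was lower (-0.28). *Polb* (-0.03), *Parp1* (0.08) and *Lig3* (0.10) did not pass the test in the pooled comparison. *Polb* was however lower in 66cl4, at 22.4 ± 1.2 CPM, than in 67NR, at 49.7 ± 2.0 CPM (log2 fold change -1.15, adjusted p in edgeR = 2.37e-05). Its means in 4T1.2 (29.9 CPM) and 4T1 (35.7 CPM) lay between these. These repair genes were picked for their roles, outside the rule for naming genes.

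Among 8 genes listed as readers of methylated CpG sites or as members of their families, all tested, 3 were higher and 4 lower (87.5% called, against 76.7% of all genes). *Mbd1*, which encodes a methyl-CpG-binding repressor, had 1912 to 2545 counts in the libraries of 4T1 and 4T1.2 and 5 to 12 counts in those of 66cl4 and 67NR. Its levels were 42.1 ± 1.1 CPM for 4T1.2, 41.5 ± 0.3 for 4T1, 0.145 ± 0.048 for 66cl4 and 0.166 ± 0.041 for 67NR (log2 fold change 8.03, SE 0.13, adjusted p in edgeR = 2.07e-11). Its fitted change exceeded that of each of the 8 enzymes, and the difference from *Dnmt3b* was not tested. *Zbtb38* was lower (-0.80, adjusted p = 9.62e-05), and *Mbd3*, a subunit of the NuRD complex, was higher by 0.53 (adjusted p = 0.000109). *Mbd4*, a glycosylase that like TDG repairs T:G mismatches, was also lower (-0.29, adjusted p = 0.00679). It was named for that function, outside the rule for naming genes.

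The methionine cycle supplies S-adenosylmethionine, the methyl donor of the methyltransferases. Of its 14 listed genes, 12 were tested, 3 of them higher and 4 lower (58.3% called, against 76.7% of all genes). *Mtr*, the methionine synthase gene (-0.70, adjusted p in edgeR = 0.000192), and *Ahcyl1* (-0.59, adjusted p = 1.44e-05) were lower. *Gnmt*, which consumes S-adenosylmethionine, was higher by 3.07 from a low level, with 40 to 62 counts against 3 to 6 (adjusted p = 2.23e-06).

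Germline genes whose promoters are normally methylated in somatic cells were mostly silent in every line. Of 16 listed genes, 4 passed the filter, and their summed level over the 16 was 2.89 to 8.02 CPM per library. *Sycp1*, a synaptonemal complex gene, was lower in 4T1/4T1.2 (-1.23, SE 0.26, adjusted p in edgeR = 0.0015), with 76 to 132 counts against 95 to 312. *Dazl*, a germ cell RNA-binding protein gene, had 0.687 ± 0.032 CPM in 67NR and 0 counts in every library of the other lines. It was named after its values were seen.

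Genes of DNA replication were listed because the products of *Dnmt1* and *Uhrf1* act at replication forks. Of 17 replication and proliferation genes, all tested, 11 were higher and 1 lower in the 4T1 pair (70.6% called, against 76.7% of all genes, of which 38.1% were higher and 38.6% lower), with a median log2 fold change of 0.32 against -0.01 for all genes. *Cdc6* was higher by 1.40, *Top2a* by 0.98, *Mcm6* by 0.56 and *Mcm3* by 0.50 (adjusted p in edgeR between 1.74e-08 and 2.48e-05). Relative to 66cl4, 14 were higher and 0 lower in 4T1.2 (82.4% called, against 68.8% of all genes), and 11 higher and 1 lower in 4T1 (70.6% against 70.0%). Relative to 67NR, 9 were higher and 1 lower in 4T1.2 (58.8% against 67.8%), and 5 higher and 4 lower in 4T1 (52.9% against 68.2%). Between 66cl4 and 67NR, 2 were higher and 11 lower in 66cl4 (76.5% called, against 44.6% of all genes). What part the cell cycle has in the levels of the 8 genes was not tested.

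**Figure D5:**
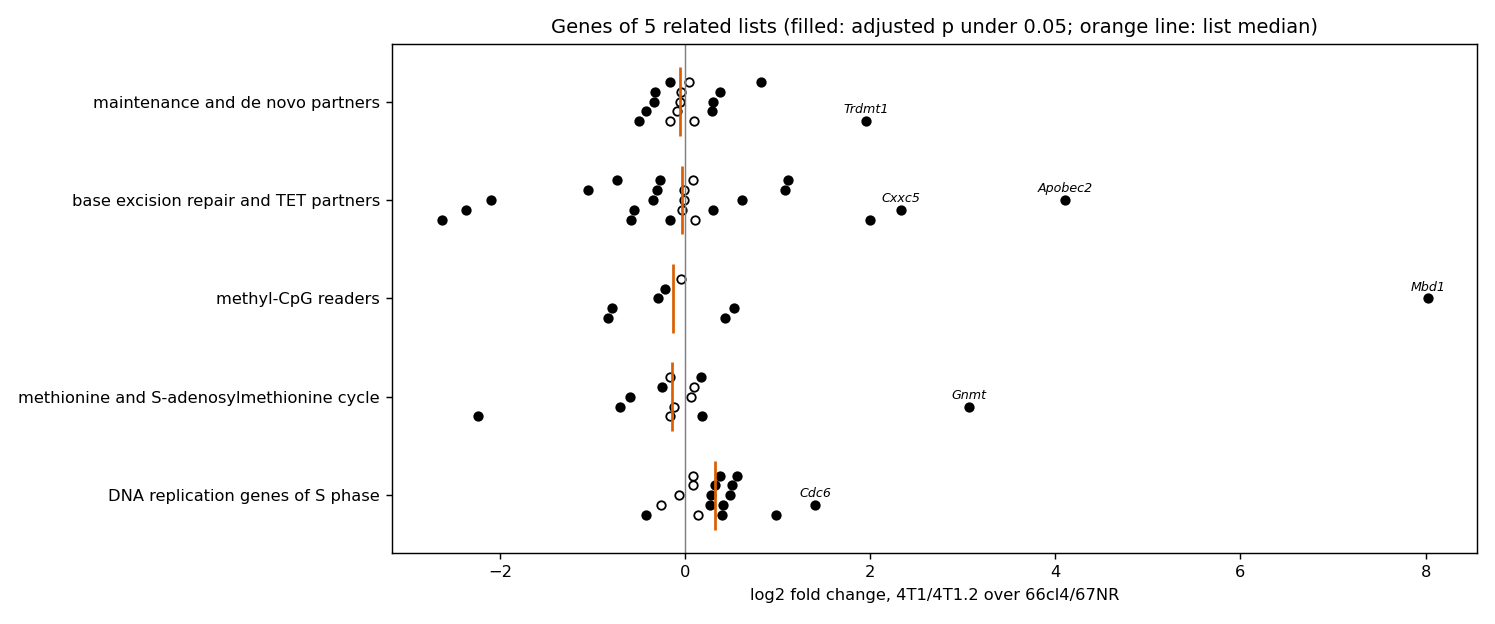
Log2 fold change of 4T1/4T1.2 over 66cl4/67NR for each tested gene of the 5 related lists (points; filled, adjusted p under 0.05 in edgeR) with the list median (orange line). Mbd1 stands apart at 8.03, and the medians of the first 4 lists lie near 0.

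Markers of cell type also differed between the same sides. All 5 epithelial markers tested were higher in 4T1/4T1.2. *Epcam* had 778 to 2378 counts against 0 to 1, and *Cdh1* had 629 to 2375 against 2 to 7. *Krt18* was higher by 6.17 and *Krt14* by 1.70. The lower side was not uniform for *Krt18*, with 114 ± 2 CPM in 66cl4 and 0.98 ± 0.22 in 67NR (SD, n = 2). Its levels were 583 ± 58 CPM in 4T1.2 and 1023 ± 251 in 4T1. Summed epithelial markers (6 genes) were 1475 to 2890 CPM in 4T1.2 and 4T1 and 465 to 720.2 CPM in 66cl4 and 67NR. Of the 4 mesenchymal markers, *Cdh2* (0 to 1 counts against 2975 to 5099), *Zeb1* (-7.37) and *Fn1* (-1.22) were lower and *Vim* was higher by 1.16. Their sum was 5321 to 7355 CPM against 3027 to 5229 CPM. Among 6 leucocyte markers, *Ptprc* had 0 to 2 counts and *Cd3e* had 0, *Itgam* had 7 to 16 counts against 0 to 5, and *Lyz2* had 0 to 4 counts in the 4T1 pair against 791 to 1387 in 66cl4 and 67NR, so that the sum was 0.194 to 0.496 CPM against 17.8 to 22.9 CPM. Among 4 endothelial markers, *Cdh5* had 33 to 204 counts against 2 to 10 and *Pecam1* 11 to 18 against 2 to 8, with sums of 0.830 to 3.65 CPM against 0.292 to 0.398 CPM. These differences ran together with those of *Dnmt3b*, *Tet1* and *Tdg*, and their part in them was not tested.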

How the data were processed

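RNA from 8 cultured samples, 2 of each line, was sequenced by the study after TruSeq RNA v2 preparation. Per the paper's methods and the submitters' processing notes, the authors used Rsubread for alignment (mm10) and featureCounts for counting, and the deposited values are raw counts per Entrez gene. The rest was computed here. Of 27179 identifiers, 25275 (93.0%) matched RefSeq genes of GRCm38. After filterByExpr (15269 genes), unmatched, predicted and ribosomal genes were removed, which left 13913. edgeR 4.0.16 (R 4.3.3) was used with TMM, its legacy quasi-likelihood test and 1 mean per line, and p-values were adjusted by Benjamini-Hochberg with a threshold of 0.05. The SE is the log2 fold change divided by the root of F. Dispersion gave a biological coefficient of variation of 9.74%. The labels number the samples of a line and give no further origin. The paper's methods describe them as 2 biological replicates of each line, without saying how these were grown. The p-values measure the spread between these samples of a line.

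The 8 genes and the lists were chosen with earlier results of these data known. Named were the 8 genes, up to 4 called genes per list with the largest pooled change, and the 3 genes nearest to each of the 8 in course. Some genes that this rule chose are not reported here. Replicate numbers were not taken to pair samples across lines. Correlations of deviations between lines ran from -0.123 to 0.269, the highest between 4T1.2 and 4T1, and a replicate effect shared by these lines was not tested. DESeq2 1.42.0, limma-voom (limma 3.58.1) and other scalings, filters and sample sets were tried as alternatives. The fit was tested on simulated data. Counting intervals are exact binomial and cover counting error only. Shared stretches were counted in reference transcripts and figures drawn with matplotlib 3.10.9.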

Additional observations from a re-analysis of the deposited data

How the results depend on the processing

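Of 25 called tests of the 8 genes, 17 kept their direction and side of the threshold under every alternative run, as did 22 of 31 that were not called, and no called direction reversed. *Dnmt3b*, *Tet1* and *Tdg* kept their calls against 66cl4 and 67NR, except that *Dnmt3b* and *Tet1* could not be tested with at least 10 counts required in every library. That filter left 3 called genes for any difference, 3 in the pooled comparison, 3 in 4T1.2 against 66cl4, 1 in 4T1.2 against 67NR, 2 in 4T1 against 66cl4 and 2 in 4T1 against 67NR. Leaving out 1 library at a time gave 3 to 6 of the 8 genes in the pooled comparison (3 without replicate 2 of 4T1.2 or of 67NR), 0 to 1 in 4T1.2 against 4T1 and 1 to 3 in 66cl4 against 67NR (1 without replicate 1 of 67NR), and 1372 to 3104 of all genes in 4T1.2 against 4T1, where 1372 were called without replicate 1 and 1424 without replicate 2 of 4T1.2. The lone library of a line was then assumed to vary like the others. Fits on the libraries of 2 lines alone called 5 of the 8 genes in 4T1.2 against 67NR (*Dnmt3a* and *Tet3* were added) and 1726 of all genes in 4T1.2 against 4T1. The cause of these shifts was not tested, apart from the fewer samples or genes in the fit. With the replicate number as a block, 5 of the 8 genes were called in the pooled comparison and 6 for any difference. The labels do not say that the numbers pair samples across lines, so this fit carries no further weight. By counts in place of RPKM, the share of *Dnmt1* was 87.8% for 4T1.2, 87.1% for 4T1, 88.1% for 66cl4 and 90.8% for 67NR, and that of *Tet3* in 67NR was 86.1%. The median shift around *Tet3* in the pooled comparison was 0.0201 in a 10 Mb window and 0.01 in a 40 Mb window, against -0.06 in 20 Mb. With 2 samples per line and 1 to 3 counts of *Dnmt3b* in each 66cl4 and 67NR library, differences within that pair were not resolved.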
